A study of Homo sapiens with 8 samples.

Results

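The HOX cluster genes are the homeobox transcription factor genes that lie side by side in clusters A, B, C and D. Their members were taken as the rows of the deposited expression table whose symbol is HOXA, HOXB, HOXC or HOXD followed by digits alone, which leaves out antisense and other noncoding symbols. Of 36 such rows among 19541 genes, 35 are described here, with 10 in cluster A, 9 in cluster B, 7 in cluster C and 9 in cluster D. Symbols for 3 further protein-coding members, HOXB1, HOXC11 and HOXC12, had no row in the table used.

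The study sequenced RNA of HAP1 cells and of HAP1 lines that lack subunits of the SWI/SNF chromatin remodeller. HAP1 is a widely used, nearly haploid human line that descends from a chronic myeloid leukaemia line and grows attached to plastic. The SMARCB1-null libraries came from cells at passage 12 made with guide CRISPR-1 or CRISPR-2 against SMARCB1, and the SMARCA4-null libraries from cells at passage 12 made with CRISPR-1 or CRISPR-2 against SMARCA4. The double-null libraries came from 1 line at passages 15 and 18, made with SMARCB1 CRISPR-1 and SMARCA4 CRISPR-2, and the wildtype libraries from 1 line at passages 9 and 12, so 2 libraries stand for each genotype. Those of the double null and of wildtype are passages of a line and not separate edits, so their spread is one between passages. P-values computed here rest on 1 estimate of spread over all 8 libraries, guides and passages together. What spread the authors' p-values measure is not given in the sources used here. Genotype, line and, for the double null, passage cannot be told apart.

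HOX genes sit in their clusters in the order in which they are used along the head-to-tail axis of the embryo. Genes of the low-numbered paralogue groups at the 3′ end are switched on early and act in the hindbrain and neck, whereas those of the high-numbered groups at the 5′ end act in the lumbar and tail regions, the limb ends and the urogenital tract. Polycomb complexes keep the clusters silent where they are not in use, and trithorax-group proteins, SWI/SNF among them, were first found in flies as factors that oppose that silencing.

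Per-library depth, inferred from what a single read adds to a ratio from the authors' deposited table, ran between 67.9 M and 103 M reads over all 8 libraries, M standing for 1000000, and the libraries of a genotype could be told apart only as deeper and shallower. Transcripts of SMARCB1 were at ratios of 0.109 and 0.182 to wildtype in the SMARCB1 null and the double null, and those of SMARCA4 at 0.0918 and 0.152 in the SMARCA4 null and the double null, from the authors' deposited table. Among marker lists for other cell types, 10 skeletal muscle genes summed to implied levels of 14393 (SMARCB1 null), 163 (SMARCA4 null), 731 (double null) and 338 (wildtype), and the 3 of them with recovered reads summed to 1468 in the deeper and 5.80 in the shallower SMARCB1-null library. The 10 neuroendocrine genes summed to 2473 (SMARCB1 null), 2569 (SMARCA4 null), 115089.8 (double null) and 1471 (wildtype), and 3 with recovered reads to 6473 in the deeper and 16.7 in the shallower double-null library. The 7 fibroblast genes with a row summed to 3526 (SMARCB1 null), 1054 (SMARCA4 null), 2955 (double null) and 719 (wildtype), and the 7 epithelial ones to 889.7 (SMARCB1 null), 2817 (SMARCA4 null), 1176 (double null) and 2484 (wildtype). The 9 haematopoietic genes with a row summed to 9359.6 (SMARCB1 null), 3557 (SMARCA4 null), 4362 (double null) and 8328 (wildtype). In wildtype, 3 of these 9 were at 10 reads or more. Most of the wildtype sum lies in genes whose reads were not recovered, since the recovered ones summed to 20.2 and 10.4 in the deeper and the shallower library. Of the 3 with recovered reads, the myeloid regulator SPI1 had 0 in both wildtype libraries. In the deeper and the shallower wildtype library GATA1 had 9.64 and 1.15 reads scaled to the mean depth, and LYL1 10.6 and 9.24. The highest values in null libraries were 14.6 for SPI1 (deeper SMARCB1 null), 19.8 for GATA1 (shallower double null) and 46.3 for LYL1 (shallower SMARCA4 null). Values without the 2 libraries that stand apart in muscle and neuroendocrine transcripts are given beside the called HOX differences that could be refitted. Reads from a smaller share of cells and less RNA per cell cannot be told apart in such bulk samples.

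Promoter windows of 4 loci are shown, chosen among the 19 HOX genes for which a window was available. None was available for HOXA5, HOXC6 or HOXB8. Each window runs from 250 bases before to 50 bases after a RefSeq transcript start in GRCh38.p14, 5′ to 3′ on the gene's strand. HOXA13 was called in opposite directions between nulls, HOXA10 was called lower in every null, HOXA2 was called in the SMARCA4 null alone, and HOXC4 and HOXC5 share 1 window. Capitals mark matches, on either strand, to CCAAT (the CCAAT box), TGATNNAT (a motif for PBX-HOX dimers) or TATAAA (the TATA box).
HOXA13 (chr7:27200042-27200341, minus strand): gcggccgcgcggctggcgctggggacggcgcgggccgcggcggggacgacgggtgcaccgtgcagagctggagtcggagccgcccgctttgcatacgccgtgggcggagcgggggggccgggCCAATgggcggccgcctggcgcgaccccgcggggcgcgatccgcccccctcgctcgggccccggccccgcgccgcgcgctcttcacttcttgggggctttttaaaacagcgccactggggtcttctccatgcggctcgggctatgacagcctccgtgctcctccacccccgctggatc
HOXA10 (chr7:27179812-27180111, minus strand): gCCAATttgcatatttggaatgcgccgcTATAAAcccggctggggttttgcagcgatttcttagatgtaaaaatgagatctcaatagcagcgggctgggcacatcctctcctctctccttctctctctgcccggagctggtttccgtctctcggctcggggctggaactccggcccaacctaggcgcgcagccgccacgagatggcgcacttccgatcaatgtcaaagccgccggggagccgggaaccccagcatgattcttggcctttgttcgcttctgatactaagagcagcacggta
HOXA2 (chr7:27102634-27102933, minus strand): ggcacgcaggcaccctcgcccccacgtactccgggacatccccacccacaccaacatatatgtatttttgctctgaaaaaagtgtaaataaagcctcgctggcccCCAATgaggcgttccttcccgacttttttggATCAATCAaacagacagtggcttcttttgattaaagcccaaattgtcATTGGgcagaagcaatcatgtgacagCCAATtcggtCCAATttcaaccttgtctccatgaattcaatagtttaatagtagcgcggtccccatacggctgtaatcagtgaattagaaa
HOXC4 and HOXC5 (chr12:54016638-54016937, plus strand): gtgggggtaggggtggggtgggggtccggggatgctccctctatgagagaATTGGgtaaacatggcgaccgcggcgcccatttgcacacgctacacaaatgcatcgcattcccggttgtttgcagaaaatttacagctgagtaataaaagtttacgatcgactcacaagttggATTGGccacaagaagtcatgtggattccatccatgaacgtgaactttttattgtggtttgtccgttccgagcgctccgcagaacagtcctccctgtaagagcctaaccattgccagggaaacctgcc
These motifs do not overlap in the windows shown. The HOXA13 window held 44 CpG dinucleotides and 76.3% G and C, the HOXA10 window 21 and 56.7%, the HOXA2 window 11 and 46.3%, and the HOXC4 and HOXC5 window 15 and 51.7%. CCAAT was present in all 4 windows, with 4 matches in that of HOXA2, and in 17 of the 26 windows of the 19 HOX genes that had any, against 34.6% of all 34943 windows. A match to TGATNNAT was seen in the HOXA2 window, in 3 of the 26 HOX windows and in 7.42% of all windows. TATAAA matched in the HOXA10 window, in 5 of the 26 and in 11.6% of all windows. Windows of alternative starts of a gene are counted separately, and a match is a description of the sequence alone.

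Wildtype HAP1 cells held transcripts of most of the HOX complement, as the plot of levels along the clusters shows. Levels here are reads scaled to the mean depth of 78.8 M. For the 13 members whose whole reads could be recovered per library they are measured reads, and for the other 22 they are the group level implied by the total and the ratios from the authors' deposited table. On the scale of reads per kilobase of exon, HOXA9 was at 3032, HOXA7 at 1847, HOXA13 at 1289, HOXB2 at 1235 and HOXA10 at 1078. With HOXA11 at 895, the members from HOXA7 to HOXA13 gave the highest levels per length, with HOXB2, a hindbrain gene, beside them. In cluster A the level per kilobase was 58.3 for HOXA2, 148 for HOXA3, 120.0 for HOXA4, 552 for HOXA5 and 252 for HOXA6, below that of HOXA7 to HOXA13. Clusters B, C and D each had high and low members: per kilobase HOXD4 stood at 757 and HOXD13 at 728, against 6.85 for HOXD9 and 6.97 for HOXD10 between them. The lowest levels per kilobase among members with wildtype reads were those of HOXB8 at 1.53 and HOXC9 at 5.88, and HOXB7 had no wildtype read.

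**Figure D1:**
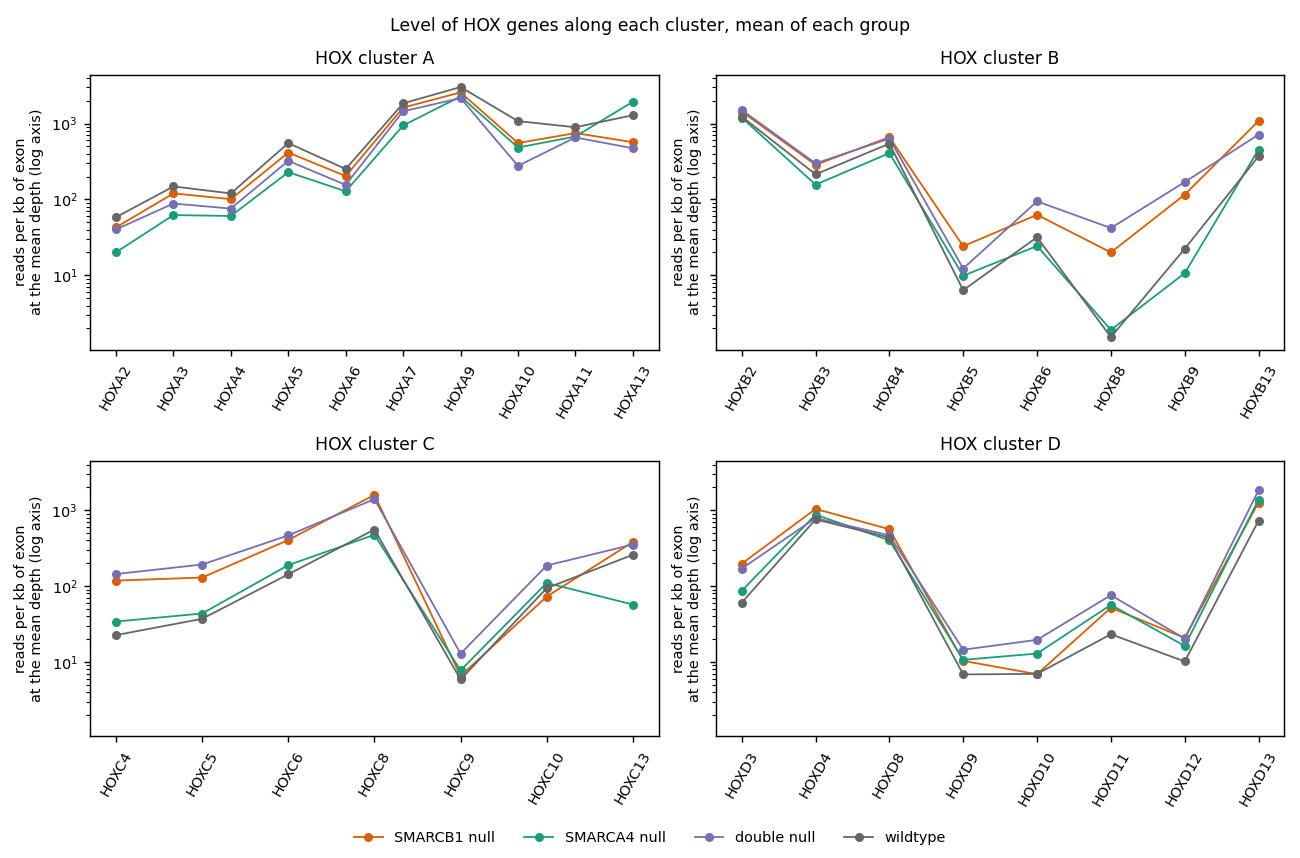
Mean level of 33 HOX genes per kilobase of exon (reads at the mean depth of 78.8 M, log axis) along each cluster, from the 3′ end at the left, in the SMARCB1 null, the SMARCA4 null, the double null and wildtype. The wildtype line lies above the 3 nulls from HOXA2 to HOXA11, and the SMARCB1-null and double-null lines lie above wildtype from HOXC4 to HOXC8. HOXB7 and HOXD1, with under 50 reads in all, are not drawn.

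In the 3 nulls the clusters differed from wildtype in different directions. Every called fall was in cluster A, and every call in clusters B, C and D was a rise. A call here means a false discovery rate (FDR) under 0.05 from the authors' deposited table. In the SMARCB1 null, 9 of 35 members rose (25.7%, beside 7.86% of all 19541 genes) and 3 fell (8.57%, beside 5.76% of all genes). In the SMARCA4 null, 2 rose (5.71%, beside 7.39% of all genes) and 5 fell (14.3%, beside 4.49% of all genes). In the double null, 9 rose (25.7%, beside 12% of all genes) and 4 fell (11.4%, beside 5.97% of all genes). All 3 comparisons share the wildtype libraries. Of the 35 members, 18 were called in at least 1 null, and 3 were called in all 3, namely HOXA5, HOXA10 and HOXA13. Among the 16558 genes with at least 100 reads, 4577 were called in at least 1 null. How many genes were called in all 3 nulls was not counted over the whole table, so whether that overlap is usual cannot be told.

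By cluster, the 10 members of cluster A had 0 higher and 3 lower in the SMARCB1 null, 1 and 5 in the SMARCA4 null, and 0 and 4 in the double null, and their median log2 ratios from the authors' deposited table were -0.31, -0.98 and -0.68 in the same order. Cluster B had 4, 0 and 3 of 9 members higher, with medians of 1.55, -0.044 and 0.95. Over its 8 members with at least 100 reads, without HOXB7, the medians were 1.26, -0.21 and 0.95. HOXB7, with 21 reads in all, is counted among the rises in the SMARCB1 null and the double null. It is so counted here, by position and over all 35 members. Cluster C had 3, 0 and 4 of 7 members higher, with medians of 1.50, 0.23 and 1.33. Cluster D had 2, 1 and 2 of 9 members higher, with medians of 0.59, 0.64 and 1.33. Over its 8 members with at least 100 reads, without HOXD1, the medians were 0.69, 0.66 and 1.21. The median of all genes from the authors' deposited table was 0.062, 0.034 and 0.17 in that order. Over all 19541 genes, 7.86%, 7.39% and 12% rose and 5.76%, 4.49% and 5.97% fell in that order. No count by cluster or position was tested against these shares. Calls were also counted by position within the clusters, where the posterior share that rose in the double null, 14.3%, was close to that of all genes. Of 15 central members (paralogue groups 4 to 8), 7 rose and 1 fell in the SMARCB1 null, 0 rose and 2 fell in the SMARCA4 null, and 6 rose and 1 fell in the double null. Of 14 posterior members (groups 9 to 13), 2 rose and 2 fell in the SMARCB1 null, 2 rose and 2 fell in the SMARCA4 null, and 2 rose and 3 fell in the double null. Among 6 anterior members (groups 1 to 3), the calls were HOXA2, lower in the SMARCA4 null, and HOXB2, higher in the double null.

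**Figure D2:**
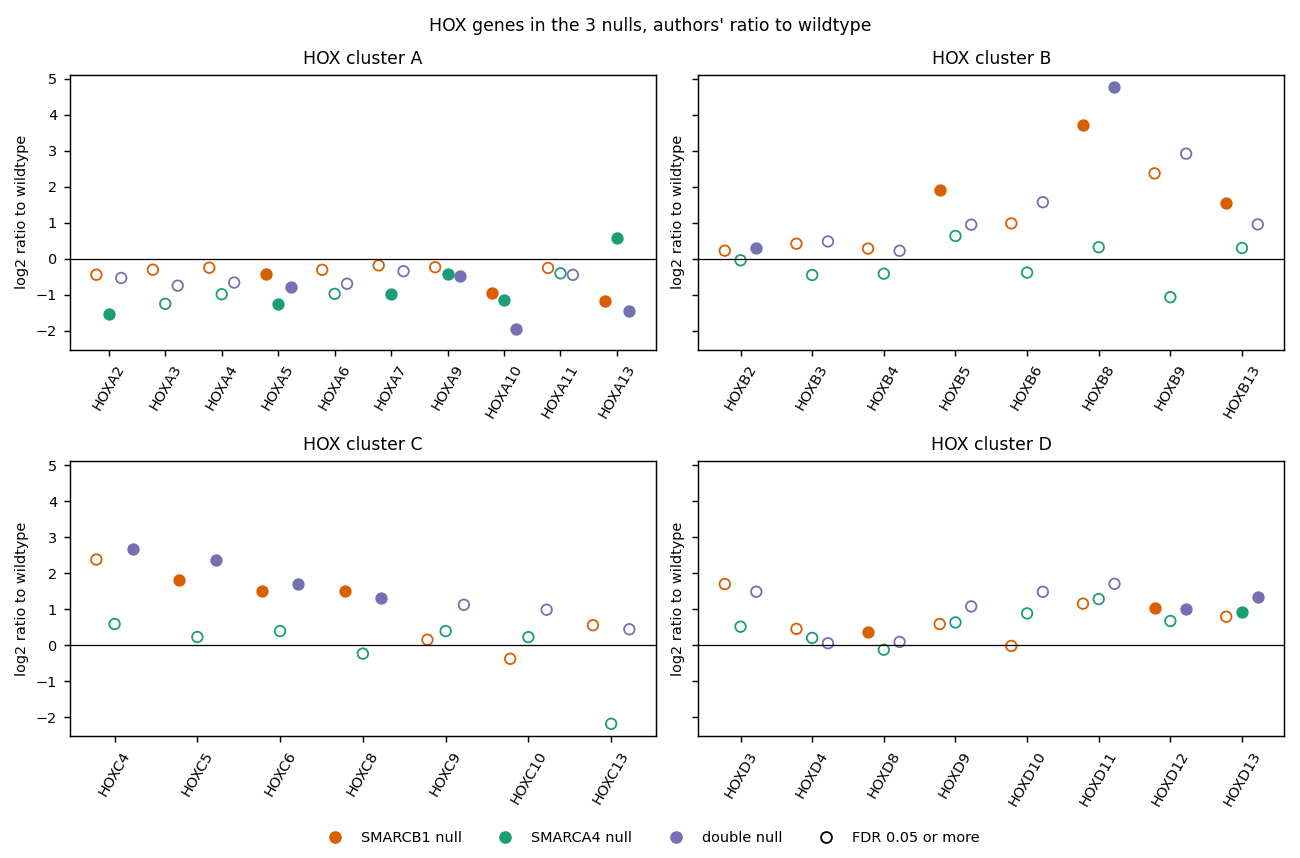
Log2 ratio to wildtype of 33 HOX genes in the authors' deposited table, for the SMARCB1 null, the SMARCA4 null and the double null, in the order of each cluster; filled points have an FDR under 0.05. Filled points lie below 0 in cluster A, except for HOXA13 in the SMARCA4 null, and above 0 in clusters B, C and D. HOXB7 and HOXD1 are not drawn.

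The called falls in cluster A were those of HOXA2, HOXA5, HOXA7, HOXA9, HOXA10 and HOXA13, and those of HOXA2, HOXA5 and HOXA7 were deepest in the SMARCA4 null. HOXA2, which patterns the hindbrain and the second pharyngeal arch, had 69.6 and 85.9 depth-corrected reads (SMARCB1 null), 25.6 and 47.4 (SMARCA4 null), 62.8 and 83.3 (double null) and 109 and 103 (wildtype). All 6 null libraries were below both wildtype libraries, and the SMARCA4-null pair was the lowest. The log2 ratios from the authors' deposited table were -0.44 without SMARCB1 (FDR 0.586), -1.54 without SMARCA4 (FDR 0.00117) and -0.54 without both (FDR 0.395). With edgeR on the recovered reads, the SMARCA4-null difference was -1.54 ± 0.36 (SE, adjusted p = 0.0132), and it missed the threshold when either wildtype library or the deeper SMARCA4-null library was left out.

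HOXA5, a gene of neck and lung patterning, had the smallest FDR of any member. It had 657 and 719 depth-corrected reads (SMARCB1 null), 355 and 403 (SMARCA4 null), 493 and 577 (double null) and 923 and 908 (wildtype). The 3 null pairs did not overlap one another or wildtype, with the SMARCA4 null lowest, then the double null, then the SMARCB1 null. The log2 ratios of HOXA5 from the authors' deposited table were -0.41 without SMARCB1 (FDR 0.0109), -1.27 without SMARCA4 (FDR 4.54e-20) and -0.78 without both (FDR 3.57e-08). By edgeR the SMARCA4-null and double-null differences were -1.27 ± 0.14 (SE, adjusted p = 0.000161) and -0.78 ± 0.14 (SE, adjusted p = 0.00192). The SMARCB1-null difference by the same test, -0.41 ± 0.14 (SE, adjusted p = 0.0615), missed the threshold, whereas TMM (trimmed-mean) scaling in edgeR gave -0.49 (adjusted p = 0.0273) and DESeq2 -0.41 (adjusted p = 0.0229). Without the deeper SMARCB1-null library edgeR gave -0.35 ± 0.18 (SE, adjusted p = 0.279). Without the deeper double-null library the double-null difference was -0.67 ± 0.15 (SE, adjusted p = 0.00249).

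Neighbours of HOXA5 had ratios of the same sign without always passing the test. HOXA3, required for thymus and parathyroid in mice, had implied levels of 441 (SMARCB1 null), 229 (SMARCA4 null), 324 (double null) and 545 (wildtype), and none of its FDRs from the authors' deposited table was under 0.476. HOXA4 was at implied levels of 176 (SMARCB1 null), 106 (SMARCA4 null), 132 (double null) and 209.7 (wildtype), with a smallest FDR of 0.748 from the authors' deposited table. HOXA6 stood at 201 (SMARCB1 null), 127 (SMARCA4 null), 154 (double null) and 249 (wildtype), with a smallest FDR of 0.651 from the authors' deposited table. These 3 genes were lowest in the SMARCA4 null and highest in wildtype, the order seen for HOXA2 and HOXA5, but the differences did not pass the test. HOXA7, a gene of the trunk, had implied levels of 3278 (SMARCB1 null), 1907 (SMARCA4 null), 2931 (double null) and 3728 (wildtype). It fell in the SMARCA4 null, with log2 ratios from the authors' deposited table of -0.19 without SMARCB1 (FDR 0.792), -0.97 without SMARCA4 (FDR 0.0176) and -0.35 without both (FDR 0.451). Totals of HOXA3, HOXA4, HOXA6, HOXA7, HOXA9 and HOXA10 are not whole numbers, and how the authors' counting gave fractions is not given in the sources used here.

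Towards the 5′ end the order of the nulls changed. HOXA9, a factor of blood progenitors that is often active in leukaemia, had implied levels of 5306 (SMARCB1 null), 4685 (SMARCA4 null), 4465 (double null) and 6246 (wildtype). It fell modestly in the SMARCA4 null and the double null, with log2 ratios from the authors' deposited table of -0.24 without SMARCB1 (FDR 0.361), -0.41 without SMARCA4 (FDR 0.0475) and -0.48 without both (FDR 0.0108). HOXA10, which acts in the uterus and the hindlimb, had implied levels of 1749 (SMARCB1 null), 1528 (SMARCA4 null), 875 (double null) and 3402 (wildtype). It fell in all 3 nulls and furthest in the double null, with log2 ratios from the authors' deposited table of -0.96 without SMARCB1 (FDR 0.000215), -1.16 without SMARCA4 (FDR 1.1e-05) and -1.96 without both (FDR 9.75e-12). HOXA11, which acts in the forearm, kidney and uterus, had 1871 and 1568 depth-corrected reads (SMARCB1 null), 1503 and 1597 (SMARCA4 null), 1371 and 1641 (double null) and 2023 and 2085 (wildtype). Every null library was below both wildtype libraries. The authors' deposited table gave HOXA11 no call, with log2 ratios of -0.26 without SMARCB1 (FDR 0.763), -0.41 without SMARCA4 (FDR 0.61) and -0.45 without both (FDR 0.441). EdgeR on the recovered reads put it at -0.26 ± 0.12 (SE, adjusted p = 0.16) without SMARCB1, -0.41 ± 0.12 (SE, adjusted p = 0.0327) without SMARCA4 and -0.45 ± 0.12 (SE, adjusted p = 0.0138) without both, so that its call depended on the test. Without the deeper double-null library the double-null value was -0.32 ± 0.13 (SE, adjusted p = 0.0597).

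HOXA13, the last gene of the cluster, which shapes the digits and the urogenital tract, was the member called in opposite directions. Its implied levels were 2861 (SMARCB1 null), 9752 (SMARCA4 null), 2381 (double null) and 6482 (wildtype). It fell in the SMARCB1 null and the double null and rose in the SMARCA4 null, with log2 ratios from the authors' deposited table of -1.18 without SMARCB1 (FDR 4.6e-05), 0.59 without SMARCA4 (FDR 0.0105) and -1.45 without both (FDR 1.17e-06). HOTTIP, a noncoding gene just beyond HOXA13, did the same, with log2 ratios from the authors' deposited table of -1.43 without SMARCB1 (FDR 0.000602), 0.79 without SMARCA4 (FDR 0.00626) and -1.50 without both (FDR 0.000299). EVX1, the homeobox gene next to it, had depth-corrected reads of 4.49 and 11.6 in the SMARCB1-null libraries, 181 and 199.5 in the SMARCA4-null libraries, 9.96 and 27.1 in the double-null libraries and 51.1 and 43.9 in the wildtype libraries. Its pairs lay apart from wildtype below in the SMARCB1 null and the double null and above in the SMARCA4 null. The log2 ratios of EVX1 from the authors' deposited table were -2.56 without SMARCB1 (FDR 0.0191), 2.00 without SMARCA4 (FDR 0.0656) and -1.36 without both (FDR 0.215), of which the SMARCB1-null fall was called. HIBADH, beyond EVX1, had no call, with log2 ratios from the authors' deposited table of 0.47 without SMARCB1 (FDR 0.227), 0.22 without SMARCA4 (FDR 0.769) and 0.38 without both (FDR 0.319). The HOXA13 difference between nulls was not tested, since its reads were not recovered.

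At the 3′ end, the noncoding gene HOTAIRM1 fell in all 3 nulls, with log2 ratios from the authors' deposited table of -0.52 without SMARCB1 (FDR 0.000131), -0.89 without SMARCA4 (FDR 3.1e-12) and -0.57 without both (FDR 1.62e-05). HOXA-AS3, antisense in the central part of the cluster, fell in the SMARCA4 null and the double null, with log2 ratios from the authors' deposited table of -0.49 without SMARCB1 (FDR 0.129), -1.47 without SMARCA4 (FDR 5.14e-10) and -1.18 without both (FDR 9.41e-07). SKAP2, the protein-coding gene outside the 3′ end, fell in the SMARCA4 null, at -0.84 (FDR 0.0195) from the authors' deposited table. The libraries were made with a stranded kit, but whether strand was used in counting is not given in the sources used here, so reads of HOX genes and of antisense genes over them may not be fully separated. Of 11 noncoding symbols inside the 4 clusters with a row, 0 rose and 2 fell without SMARCB1, 1 rose and 2 fell without SMARCA4, and 0 rose and 3 fell without both, by the FDRs of the authors' deposited table. Over all genes, 7.86%, 7.39% and 12% rose and 5.76%, 4.49% and 5.97% fell in the same order, shares against which these counts were not tested. The noncoding members that moved were those named here, all in cluster A. The median log2 ratio over the 11 was -0.49, -0.16 and -0.57 in the same order.

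**Figure D3:**
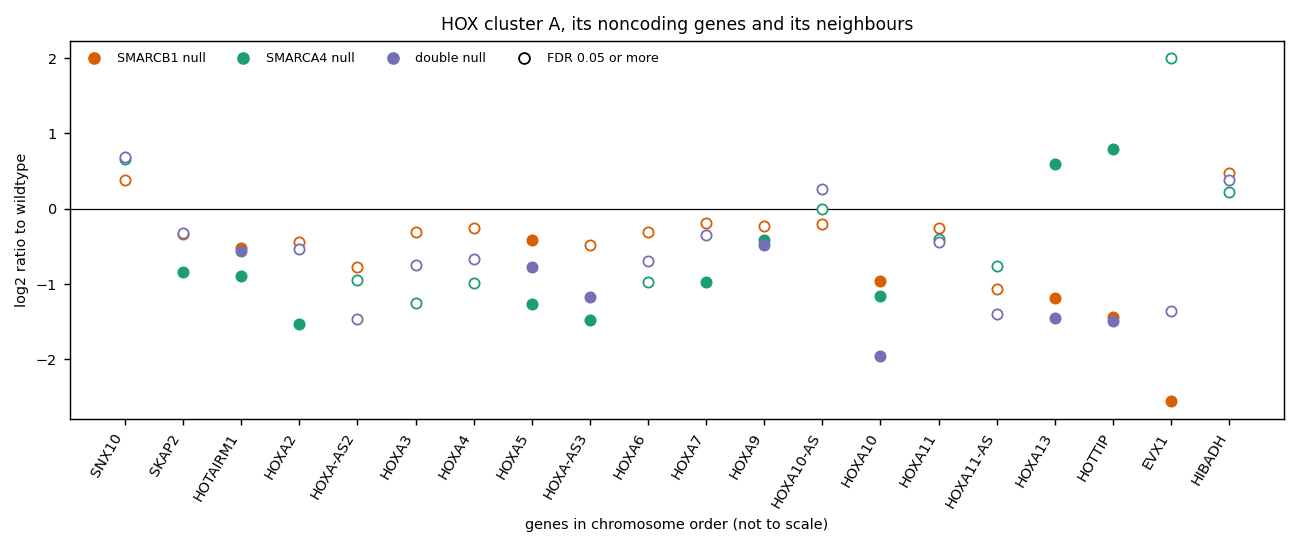
Log2 ratio to wildtype of the genes of HOX cluster A, of noncoding genes inside it and of its neighbours, in chromosome order (not to scale), for the SMARCB1 null, the SMARCA4 null and the double null; filled points passed the FDR threshold of 0.05 of the authors' deposited table. The SMARCA4-null points lie below 0 from SKAP2 to HOXA11-AS, except near 0 at HOXA10-AS, and above 0 at HOXA13, HOTTIP and EVX1, where the other nulls lie below 0.

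In cluster B, HOXB7 and HOXB8, which are close to silent in wildtype, were called higher in the SMARCB1 null and the double null from the authors' deposited table, and on the recovered reads the call held for HOXB8 and not for HOXB7. HOXB8, a trunk gene whose forced expression holds mouse myeloid progenitors in an immature state, had 35.9 and 37.1 depth-corrected reads (SMARCB1 null), 2.56 and 4.41 (SMARCA4 null), 52.1 and 101 (double null) and 0.964 and 4.62 (wildtype). Both nulls without SMARCB1 lay far above the wildtype pair, whereas the SMARCA4-null pair overlapped it. Log2 ratios from the authors' deposited table were 3.71 without SMARCB1 (FDR 0.000497), 0.32 without SMARCA4 (FDR 0.823) and 4.77 without both (FDR 9.73e-06). EdgeR gave differences of 3.71 ± 0.67 (SE, adjusted p = 0.0025) in the SMARCB1 null and 4.77 ± 0.67 (SE, adjusted p = 0.00039) in the double null. Without the deeper library of each null, the values were 3.74 ± 0.78 (SE, adjusted p = 0.0085) and 5.18 ± 0.64 (SE, adjusted p = 3.08e-06).

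HOXB7, the next gene, had 5 and 3 reads in the SMARCB1-null libraries, 8 and 5 in the double-null libraries, and none in the SMARCA4-null and wildtype libraries. Against a floor of 3 reads over the wildtype pair it was 2.89-fold higher in the SMARCB1 null and 3.60-fold higher in the double null. Those values do not cover the counting error of the null reads. Both rises were called from the authors' deposited table (FDR 0.000106 and 6.99e-05), on 21 reads in all. On the recovered reads neither rise was called: edgeR without the filter on low counts gave adjusted p = 0.161 in the SMARCB1 null and 0.0937 in the double null, and the unadjusted p of DESeq2, which gave HOXB7 no adjusted one, was 0.076 and 0.0559. HOXB5, which acts in the enteric nervous system, had 67.4 and 31.3 depth-corrected reads (SMARCB1 null), 20.5 and 19.8 (SMARCA4 null), 16.8 and 33.3 (double null) and 14.5 and 11.5 (wildtype). Every null library was above both wildtype libraries, the deeper SMARCB1-null library most. The shallower SMARCB1-null library lay within the double-null pair. The log2 ratio from the authors' deposited table was 1.92 (FDR 0.00958) in the SMARCB1 null, the 1 null in which HOXB5 was called. Without that deeper library, which also held the skeletal muscle transcripts, the edgeR difference was 1.26 ± 0.63 (SE, adjusted p = 0.259), against 1.91 ± 0.54 (SE, adjusted p = 0.03) with it. Without the filter on low counts the edgeR call was lost as well (adjusted p = 0.0791).

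Other cluster B members were less clear or less changed. HOXB9, a thoracic gene, had implied levels of 299 (SMARCB1 null), 27.6 (SMARCA4 null), 438 (double null) and 57.8 (wildtype), but its log2 ratios from the authors' deposited table passed no threshold, at 2.37 without SMARCB1 (FDR 0.317), -1.07 without SMARCA4 (FDR 0.903) and 2.92 without both (FDR 0.131). HOXB6 had implied levels of 123 (SMARCB1 null), 47.7 (SMARCA4 null), 185 (double null) and 62.3 (wildtype) and no call (smallest FDR 0.355 from the authors' deposited table). HOXB13, a prostate and tail-region gene, had implied levels of 3751 (SMARCB1 null), 1577 (SMARCA4 null), 2484 (double null) and 1283 (wildtype). It rose in the SMARCB1 null, with log2 ratios from the authors' deposited table of 1.55 without SMARCB1 (FDR 0.000243), 0.30 without SMARCA4 (FDR 0.824) and 0.95 without both (FDR 0.0594). Among the anterior members, HOXB2 had 2234 and 2272 depth-corrected reads (SMARCB1 null), 1827 and 1917 (SMARCA4 null), 2229 and 2484 (double null) and 1985 and 1874 (wildtype). Both SMARCB1-null and both double-null libraries were above the wildtype pair, by a small margin. Its log2 ratios from the authors' deposited table were 0.22 without SMARCB1 (FDR 0.0814), -0.044 without SMARCA4 (FDR 0.908) and 0.29 without both (FDR 0.0107), and the double-null value by edgeR was 0.29 ± 0.092 (SE, adjusted p = 0.0362). Without the deeper double-null library it was 0.36 ± 0.11 (SE, adjusted p = 0.0177). With TMM scaling the double-null value was 0.069 (adjusted p = 0.6), so the call was lost. HOXB3, and HOXB4, a factor that expands blood stem cells, had implied levels of 1794 (SMARCB1 null), 982 (SMARCA4 null), 1873 (double null) and 1343 (wildtype) for HOXB3 and 2485 (SMARCB1 null), 1533 (SMARCA4 null), 2382 (double null) and 2044 (wildtype) for HOXB4, with smallest FDRs of 0.476 and 0.638 from the authors' deposited table.

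**Figure D4:**
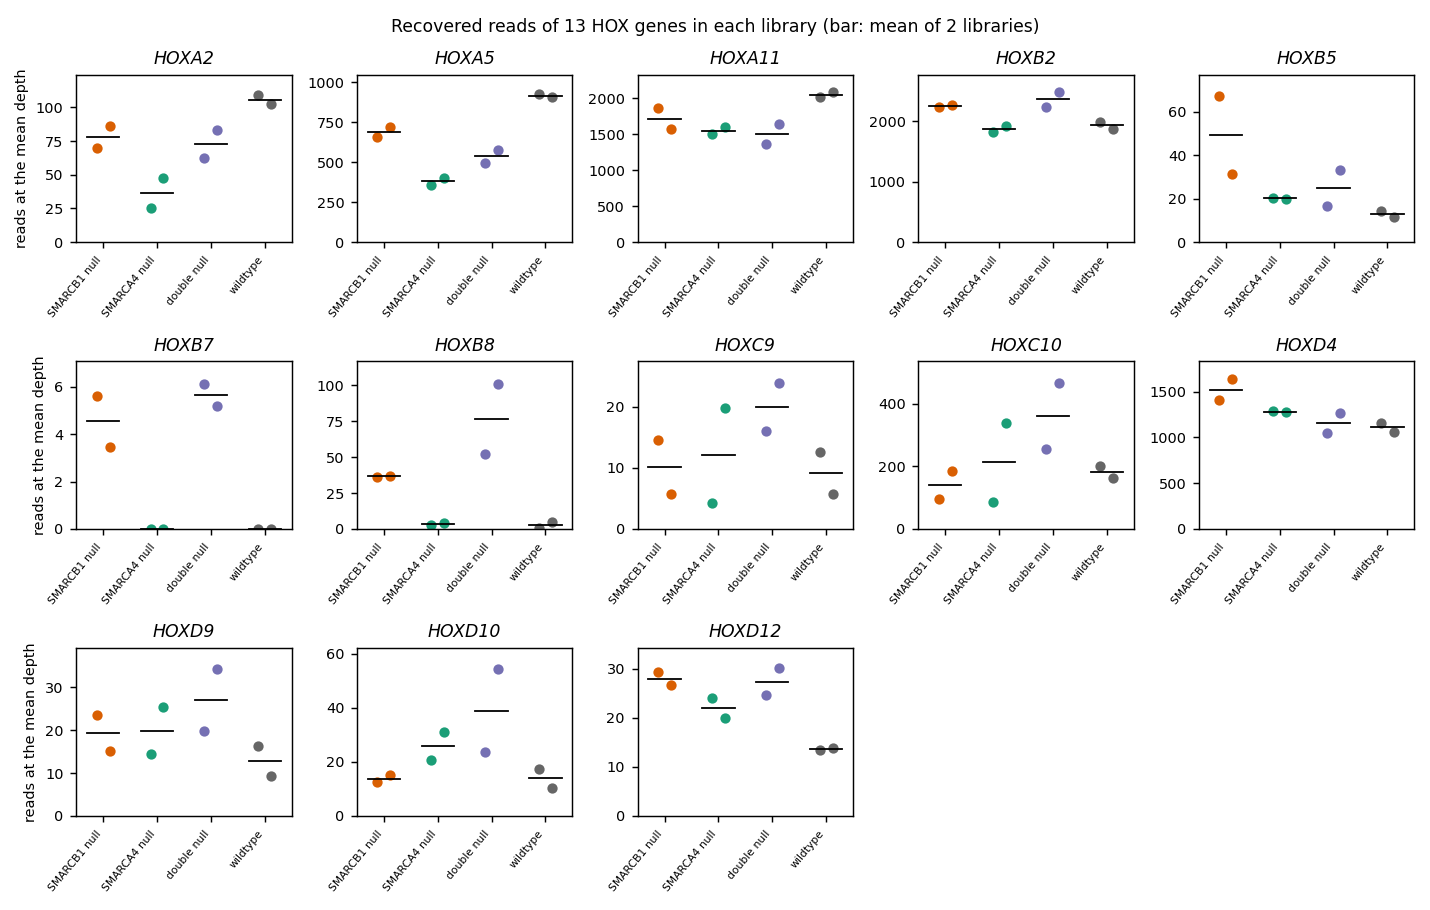
Depth-corrected reads (scaled to the mean depth of 78.8 M) of the 13 HOX genes with recovered reads in each of the 8 libraries; points are libraries, the deeper at the left of each pair, and bars are means of 2. HOXB8 lies at 35.9 and 37.1 in the SMARCB1 null, at 52.1 and 101 in the double null, and below 5 in the SMARCA4 null and wildtype, and HOXA5 is lowest in the SMARCA4 null.

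In cluster C a run of neighbours, HOXC4, HOXC5, HOXC6 and HOXC8, rose in the double null, and all but HOXC4 of them were called in the SMARCB1 null as well. HOXC6, a trunk and limb-level gene, had implied levels of 1316 (SMARCB1 null), 614 (SMARCA4 null), 1514 (double null) and 466 (wildtype). Its log2 ratios from the authors' deposited table were 1.50 without SMARCB1 (FDR 1.88e-14), 0.40 without SMARCA4 (FDR 0.212) and 1.70 without both (FDR 9.71e-19). HOXC5 had implied levels of 234 (SMARCB1 null), 78.6 (SMARCA4 null), 348 (double null) and 66.9 (wildtype), with log2 ratios from the authors' deposited table of 1.81 without SMARCB1 (FDR 0.026), 0.23 without SMARCA4 (FDR 0.94) and 2.38 without both (FDR 0.000976). HOXC4 had implied levels of 268 (SMARCB1 null), 77.3 (SMARCA4 null), 327 (double null) and 51.3 (wildtype), and its log2 ratios from the authors' deposited table were 2.38 without SMARCB1 (FDR 0.0852), 0.59 without SMARCA4 (FDR 0.888) and 2.67 without both (FDR 0.0301). The implied levels of the 3 genes were thus highest in the double null and next in the SMARCB1 null, an order that was not tested. In the SMARCA4 null they were above wildtype without a call, at ratios of 1.51 (HOXC4), 1.17 (HOXC5) and 1.32 (HOXC6). HOXC4, HOXC5 and HOXC6 share leader exons and have totals that are not whole numbers, and their reads may not be fully separated.

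Another, shorter deposited table of 409 genes lists these same 3 members with the same totals, closely similar ratios and other p-values. There the SMARCB1-null FDR of HOXC4 was 1.62e-06 and its double-null FDR 1.93e-08, while HOXC6 passed the threshold in the SMARCA4 null too (FDR 0.0124), all in the authors' deposited table. How the p-values of either table were made is not given in the sources used here. HOXC8, which sets the identity of motor neurons at the forelimb level, had implied levels of 3014 (SMARCB1 null), 897 (SMARCA4 null), 2646 (double null) and 1052 (wildtype). It rose in the SMARCB1 null and the double null, with log2 ratios from the authors' deposited table of 1.52 without SMARCB1 (FDR 0.0015), -0.23 without SMARCA4 (FDR 0.914) and 1.33 without both (FDR 0.00709).

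Beyond HOXC8 no member of cluster C was called. HOXC9, a thoracic gene, had 14.6 and 5.80 depth-corrected reads (SMARCB1 null), 4.27 and 19.8 (SMARCA4 null), 16.1 and 23.9 (double null) and 12.5 and 5.77 (wildtype), pairs that overlap wildtype in the SMARCB1 null and the SMARCA4 null and lie above it in the double null. It was not called, with a smallest FDR of 0.498 from the authors' deposited table. HOXC10, a lumbar gene, had 95.5 and 186 depth-corrected reads (SMARCB1 null), 87.1 and 339 (SMARCA4 null), 256 and 467 (double null) and 202 and 162 (wildtype). Its SMARCA4-null libraries lay on either side of wildtype, and no FDR from the authors' deposited table was under 0.582. HOXC13, a gene of hair and nails, had implied levels of 924 (SMARCB1 null), 138 (SMARCA4 null), 855 (double null) and 627 (wildtype). Its SMARCA4-null log2 ratio was -2.18 (FDR 0.184) from the authors' deposited table, a value that the test did not separate from wildtype.

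In cluster D the called members were HOXD8, HOXD12 and HOXD13, and each of their calls was a rise. HOXD13, which shapes the digits, had implied levels of 2832 (SMARCB1 null), 3091 (SMARCA4 null), 4105 (double null) and 1631 (wildtype). It rose in the SMARCA4 null and the double null, with log2 ratios from the authors' deposited table of 0.80 without SMARCB1 (FDR 0.111), 0.92 without SMARCA4 (FDR 0.0499) and 1.33 without both (FDR 0.000445). The SMARCA4-null call was at the edge of the threshold. HOXD12, its neighbour, had 29.2 and 26.7 depth-corrected reads (SMARCB1 null), 23.9 and 19.8 (SMARCA4 null), 24.5 and 30.2 (double null) and 13.5 and 13.9 (wildtype). All 6 null libraries were above both wildtype libraries. The log2 ratios of HOXD12 from the authors' deposited table were 1.03 without SMARCB1 (FDR 0.0213), 0.68 without SMARCA4 (FDR 0.0814) and 1.00 without both (FDR 0.0194). The edgeR values, 1.03 ± 0.46 (SE, adjusted p = 0.156) in the SMARCB1 null and 0.99 ± 0.45 (SE, adjusted p = 0.128) in the double null, missed the threshold, on 182 reads in all. Without the deeper library of each null they were 0.96 ± 0.59 (SE, adjusted p = 0.365) and 1.14 ± 0.54 (SE, adjusted p = 0.128).

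HOXD8, a trunk gene, had implied levels of 1478 (SMARCB1 null), 1055 (SMARCA4 null), 1226 (double null) and 1147 (wildtype). Its rise in the SMARCB1 null was small but had a low FDR, with log2 ratios from the authors' deposited table of 0.37 without SMARCB1 (FDR 5.26e-09), -0.12 without SMARCA4 (FDR 0.119) and 0.096 without both (FDR 0.212). HOXD4, a neck-level gene, had 1412 and 1634 depth-corrected reads (SMARCB1 null), 1284 and 1275 (SMARCA4 null), 1043 and 1268 (double null) and 1158 and 1059 (wildtype). Both SMARCB1-null and both SMARCA4-null libraries were above both wildtype libraries, the SMARCB1-null pair highest. No call was made for HOXD4 from the authors' deposited table (log2 ratio 0.46 (FDR 0.489) in the SMARCB1 null), whereas edgeR called the SMARCB1-null difference, at 0.46 ± 0.12 (SE, adjusted p = 0.0182), and 0.56 ± 0.14 (SE, adjusted p = 0.0199) without the deeper SMARCB1-null library. That call was lost without the filter on low counts (edgeR adjusted p = 0.0597).

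The limb genes HOXD9, HOXD10 and HOXD11 were low in wildtype. HOXD9 had 23.6 and 15.1 depth-corrected reads (SMARCB1 null), 14.5 and 25.4 (SMARCA4 null), 19.9 and 34.3 (double null) and 16.4 and 9.24 (wildtype). HOXD10, which also acts in lumbar motor neurons, had 12.4 and 15.1 depth-corrected reads (SMARCB1 null), 20.5 and 30.9 (SMARCA4 null), 23.7 and 54.1 (double null) and 17.3 and 10.4 (wildtype). Both double-null libraries were above the wildtype pair for each gene, the shallower library most. HOXD10 had a double-null log2 ratio of 1.49 (FDR 0.0616) from the authors' deposited table, and the edgeR value was 1.46 ± 0.55 (SE, adjusted p = 0.0685), or 1.94 ± 0.54 (SE, adjusted p = 0.00976) without the deeper double-null library. The double-null ratio of HOXD9 was 1.08 (FDR 0.184) from the authors' deposited table. HOXD11 had implied levels of 79.4 (SMARCB1 null), 86.8 (SMARCA4 null), 116 (double null) and 35.5 (wildtype), with a double-null log2 ratio of 1.71 (FDR 0.056) from the authors' deposited table. These 3 differences missed the threshold from the authors' deposited table.

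HOXD3, a neck-level gene, had implied levels of 491 (SMARCB1 null), 216 (SMARCA4 null), 424 (double null) and 151 (wildtype), with a smallest FDR of 0.309 from the authors' deposited table. HOXD1 had 45.6 reads in all, and its ratio from the authors' deposited table is the one that these reads give when all of them lie in the deeper double-null library, with a double-null FDR of 0.486. That library is the one with the neuroendocrine transcripts, and their part in the HOXD1 reads was not tested.

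Paralogue group 13 has a member in every cluster and shows the different directions side by side. In the SMARCB1 null the log2 ratios from the authors' deposited table were -1.18 for HOXA13, 1.55 for HOXB13, 0.56 for HOXC13 and 0.80 for HOXD13. The SMARCA4-null values from the authors' deposited table were 0.59, 0.30, -2.18 and 0.92 in the same gene order. In the double null they were -1.45, 0.95, 0.45 and 1.33 from the authors' deposited table. Of these 12 values 6 were called, with HOXA13 in each null, HOXB13 in the SMARCB1 null, and HOXD13 in the SMARCA4 null and the double null.

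Differences between nulls were tested on the 12 members with recovered reads that passed the edgeR filter on low counts. Between the SMARCB1 null and the SMARCA4 null, 2 of 12 were called, beside 14.2% of 2655 genes. HOXA5 was higher in the SMARCB1 null than in the SMARCA4 null by a log2 difference of 0.86 ± 0.14 (SE, adjusted p = 0.00214), and HOXB8 by 3.37 ± 0.64 (SE, adjusted p = 0.0044). Without the deeper SMARCB1-null library the values were 0.92 ± 0.18 (SE, adjusted p = 0.00827) and 3.40 ± 0.75 (SE, adjusted p = 0.0175). Without the deeper SMARCA4-null library HOXB8 was no longer called. HOXB2, at 0.27 ± 0.092 (SE, adjusted p = 0.0783), and HOXA2, at 1.10 ± 0.36 (SE, adjusted p = 0.0636), missed the threshold, though DESeq2 called HOXB2, at 0.27 (adjusted p = 0.0111).

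Between the double null and the SMARCA4 null, 3 of 12 were called, beside 14.7% of 2655 genes. HOXB8 was higher in the double null by 4.43 ± 0.64 (SE, adjusted p = 0.00108), HOXA5 by 0.50 ± 0.14 (SE, adjusted p = 0.0343) and HOXB2 by 0.33 ± 0.092 (SE, adjusted p = 0.0322). HOXB8 kept its call in every alternative run, whereas HOXA5 and HOXB2 lost theirs with TMM scaling, without the filter, and when either wildtype library, either SMARCA4-null library or the shallower double-null library was left out. Without the deeper double-null library the values were 4.84 ± 0.61 (SE, adjusted p = 9.1e-06) for HOXB8, 0.61 ± 0.15 (SE, adjusted p = 0.00811) for HOXA5 and 0.41 ± 0.11 (SE, adjusted p = 0.0153) for HOXB2.

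Between the double null and the SMARCB1 null, edgeR called 0 of 12, beside 4.48% of 2655 genes, and 3 of 12 had an unadjusted p under 0.05. DESeq2 called 1, HOXD4, which was lower in the double null by a log2 difference of -0.40 (adjusted p = 0.0168), and edgeR gave -0.40 ± 0.12 (SE, adjusted p = 0.0781), or -0.54 (adjusted p = 0.0278) with TMM scaling. HOXB8 was at 1.06 ± 0.51 (SE, adjusted p = 0.269), HOXA5 at -0.36 ± 0.14 (SE, adjusted p = 0.164) and HOXD10 at 1.49 ± 0.56 (SE, adjusted p = 0.154). Without the deeper double-null library, the one with the neuroendocrine transcripts, HOXD10 was called, at 1.97 ± 0.54 (SE, adjusted p = 0.0343), and HOXD4 was at -0.26 ± 0.13 (SE, adjusted p = 0.276). With 2 libraries a group these intervals are wide for the low members, and the missed threshold does not show that the nulls are alike. Of the 35 members, 9 were called from the authors' deposited table in both the SMARCB1 null and the double null, comparisons that share their wildtype libraries. The same count was not made over all genes, so whether that overlap is usual cannot be told.

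**Figure D5:**
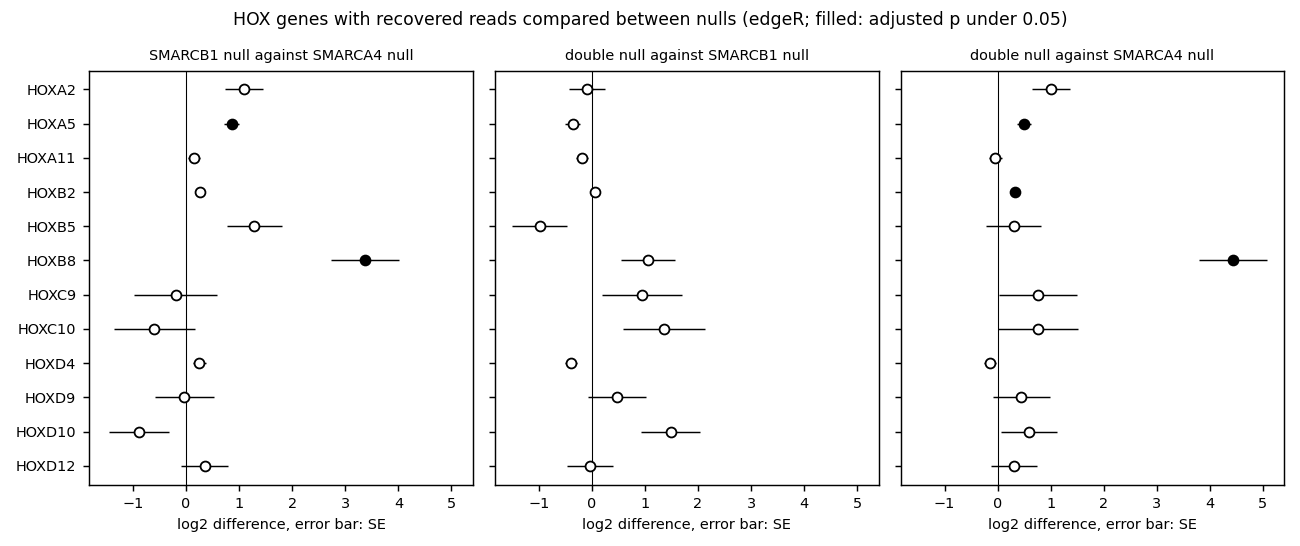
Log2 difference (edgeR on recovered reads, error bars SE, 2 libraries a group) of 12 HOX genes for the SMARCB1 null against the SMARCA4 null, the double null against the SMARCB1 null and the double null against the SMARCA4 null; filled points have an adjusted p under 0.05. HOXB8 lies at 3.37 and 4.43 in the comparisons with the SMARCA4 null, and no point is filled in the comparison of the double null with the SMARCB1 null.

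Genes that act with or upstream of HOX genes were read from lists of known factors. Beside the counts of these lists, 7.86% of all 19541 genes rose and 5.76% fell without SMARCB1. Without SMARCA4 the shares were 7.39% and 4.49%, and without both 12% and 5.97%. The lists are short, and their counts were not tested against these shares. Of 9 TALE homeobox genes, whose proteins bind DNA together with HOX proteins, 1 rose and 2 fell without SMARCB1, 2 rose and 2 fell without SMARCA4, and 3 rose and 2 fell without both, by the FDRs of the authors' deposited table (median log2 ratios of -0.20, -0.13 and 0.039 in the same order). PKNOX1 fell in the SMARCB1 null and the double null, at -0.58 (FDR 9.83e-22) and -0.58 (FDR 1.04e-21), and PKNOX2 rose in both, at 0.86 (FDR 1.06e-05) and 0.89 (FDR 3.19e-06), from the authors' deposited table. MEIS2 rose in the SMARCA4 null and the double null, at 0.28 (FDR 0.0371) and 0.36 (FDR 0.00199) from the authors' deposited table.

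Retinoic acid, made by ALDH1A enzymes and broken down by CYP26 enzymes, switches on 3′ HOX genes in embryos. Of 16 genes of this pathway, 1 rose and 3 fell without SMARCB1, 2 rose and 2 fell without SMARCA4, and 2 rose and 3 fell without both, by the FDRs of the authors' deposited table (median log2 ratios of 0.11, 0.25 and 0.14 in the same order). ALDH1A2, the main synthetic enzyme of the embryonic trunk, had implied levels of 2396 (SMARCB1 null), 219 (SMARCA4 null), 13.6 (double null) and 9674 (wildtype). It fell in each null, with log2 ratios from the authors' deposited table of -2.01 without SMARCB1 (FDR 6.85e-14), -5.46 without SMARCA4 (FDR 2.17e-11) and -9.47 without both (FDR 0.0113). ALDH1A1, a related enzyme, rose in the SMARCB1 null and the double null, at 2.52 (FDR 0.00285) and 6.81 (FDR 2.32e-14) from the authors' deposited table. CYP26A1, which degrades retinoic acid, rose in the SMARCA4 null, with log2 ratios from the authors' deposited table of 1.65 without SMARCB1 (FDR 0.519), 6.05 without SMARCA4 (FDR 2.76e-06) and 1.89 without both (FDR 0.348). DHRS3, which turns retinal back to retinol, fell in the SMARCB1 null and the double null, at -1.85 (FDR 0.0015) and -1.73 (FDR 0.0019) from the authors' deposited table. The called members thus include synthetic enzymes in both directions and a degrading enzyme that rose.

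Of 16 polycomb genes, 2 rose and 2 fell without SMARCB1, 3 rose and 2 fell without SMARCA4, and 3 rose and 2 fell without both, by the FDRs of the authors' deposited table (median log2 ratios of 0.061, 0.097 and 0.045 in the same order). JARID2, which recruits polycomb repressive complex 2, rose in all 3 nulls, with log2 ratios from the authors' deposited table of 1.36 without SMARCB1 (FDR 1.64e-08), 0.70 without SMARCA4 (FDR 0.0275) and 1.73 without both (FDR 1.6e-14). BMI1, a core subunit of polycomb repressive complex 1, fell slightly, with log2 ratios from the authors' deposited table of -0.18 without SMARCB1 (FDR 0.00873), -0.30 without SMARCA4 (FDR 7.96e-07) and -0.18 without both (FDR 0.00618). RING1, its ubiquitin ligase partner, rose in the SMARCA4 null, at 0.38 (FDR 1.91e-05) from the authors' deposited table. Of 13 trithorax-group and H3K27 demethylase genes, 0 rose and 1 fell without SMARCB1, 2 rose and 0 fell without SMARCA4, and 0 rose and 1 fell without both, by the FDRs of the authors' deposited table (median log2 ratios of 0.011, 0.026 and 0.0089 in the same order). The called ones were ASH2L, at -0.063 without SMARCB1 (FDR 0.633), 0.23 without SMARCA4 (FDR 0.00104) and -0.36 without both (FDR 1.11e-07), KDM6B, at 0.76 (FDR 0.00608) in the SMARCA4 null, and PSIP1, at -0.31 (FDR 0.0263) in the SMARCB1 null, from the authors' deposited table.

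Of 7 genes for cohesin and CTCF, which fold the clusters into loops, 0 rose and 2 fell without SMARCB1, 0 rose and 2 fell without SMARCA4, and 0 rose and 3 fell without both, by the FDRs of the authors' deposited table (median log2 ratios of -0.33, -0.25 and -0.29 in the same order). STAG2 had log2 ratios from the authors' deposited table of -0.36 without SMARCB1 (FDR 3.94e-100), -0.25 without SMARCA4 (FDR 1.09e-47) and -0.45 without both (FDR 8.56e-150), and RAD21 of -0.45 without SMARCB1 (FDR 1.51e-14), -0.27 without SMARCA4 (FDR 1.05e-05) and -0.34 without both (FDR 1.18e-08). SMC1A fell in the double null, at -0.25 (FDR 0.00512) from the authors' deposited table. The caudal gene CDX2, an activator of trunk HOX genes in embryos, had implied levels of 1670.4 (SMARCB1 null), 1199 (SMARCA4 null), 1520.4 (double null) and 977 (wildtype) and was not called, and neither was GSX2, the other one with a row among 6 caudal and ParaHox symbols (0 called in each null from the authors' deposited table). Genes flanking clusters B and C had 0 calls among 3 and 4 with a row, and of 4 flanking cluster D, KIAA1715 rose in the SMARCB1 null, at 0.85 (FDR 0.000485) from the authors' deposited table.

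For the 4 members with the smallest FDR, the genes with the most similar trio of log2 ratios from the authors' deposited table were found among 4577 genes with at least 100 reads and a call in at least 1 null. Likeness was the Euclidean distance over the 3 nulls, on the log2 scale. Nearest to HOXA5 were ANTXR1, ZNF192P1, CPXM1, SPG20OS and KLF15, at distances of 0.16 to 0.24. Nearest to HOXC6 were NARS2, CUBN, LOC101928370, LOC101409256 and PIR-FIGF, at 0.13 to 0.25. Those closest to HOXA10 were RAB38, CORIN, WWTR1, ATP10D and TGFBR2, at 0.20 to 0.41, and those closest to HOXD8 were REPS1, C1QBP, MDN1, TOPORS-AS1 and TEAD1, at 0.065 to 0.098. No other HOX gene was among the 5 nearest of any of the 4.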

How the data were processed

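RNA of 8 libraries was compared: 2 each of the SMARCB1 null, the SMARCA4 null, the double null and wildtype HAP1. Per the labels' protocols, cultures were harvested at 70% confluence, Trizol served to extract RNA, and a stranded mRNA kit served for library preparation. The submitters' processing notes name STAR, Partek 4.0 and hg19, without saying what each did. The deposited tables hold the authors' comparisons. Per the file headers, they give a gene's total reads over all samples (an estimated count, whole for 20 of the 35 HOX members), the ratio of each null to wildtype, a signed fold change (a score that is negative for a fall, not used further), and a p-value with its step-up FDR. The log2 of the authors' ratio was taken here. Which test, scaling and added constant the authors used is not given in the sources used here. Columns that belong to no sample or comparison of the study numbered 0, so none is left aside.

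Reads per library were recovered by searching for whole reads that give the deposited total and all 3 ratios of a gene. This worked for 4480 of 19541 genes, among them 13 HOX members. Totals that are not whole or lie above 20000 were not tried. Of the genes tried, 93.7% were recovered up to 1500 total reads and 59.4% from 1500 to 3000. The share was 48.6% from 3000 to 10000 and 46.9% from 10000 to 20000. HOXB4, HOXB9, HOXB13, HOXC8 and HOXD3 were tried and not recovered. The search was tested on simulated data and on altered ratios. Which library of a group is which passage or guide remains unknown, so libraries are named by depth. Depth-corrected reads are scaled to the mean depth of 78.8 M reads. Where reads were not recovered, the implied level assumes equal levels in the libraries of a group. On recovered genes with at least 100 reads, its median error was 0.593% in wildtype, and 95% of genes were within 14.1%.

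EdgeR 4.0.16 (quasi-likelihood test, robust, all 8 libraries in 1 fit, authors' scaling, Benjamini-Hochberg adjustment over 2655 genes that passed its filter on low counts) compared nulls. R 4.3.3, DESeq2 1.42.0 and Python 3.11.15 were used, and simulated counts with known changes served to test the edgeR step. Counts of called HOX members were repeated with other thresholds, a filter and centring, and those among recovered members with other scaling, no filter, DESeq2 and every library left out. Exon lengths came from GENCODE 29 and promoter windows from RefSeq. The members and lists were chosen with earlier results of these data known. Members called in any null or with at least 50 reads were given in full, and from other lists at most 4 genes by smallest FDR, neighbours and markers apart. A further row of the pattern and some list genes are not reported here. Precision rests on 2 libraries a group, and floors cover counting error alone, on the wildtype side.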

Additional observations from a re-analysis of the deposited data

How the results depend on the processing

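No paired analysis was possible because the recovered libraries carry no replicate letter, so no block could be fitted. In the SMARCA4 null the count of called HOX members was 3 instead of 7 at an FDR under 0.01, and 3 with a 2-fold change also asked for. In the SMARCB1 null and the double null these counts stayed within 1.5 times of 12 and 13. Centring the ratios on the median of genes with at least 100 reads, which lay at 0.12 in the double null on the log2 scale, changed no direction of a called member. Among the 12 recovered members tested, leaving out each library in turn gave 1 to 4 calls in the SMARCB1 null, 1 to 3 in the SMARCA4 null and 2 to 4 in the double null, where edgeR with all libraries gave 3, 3 and 4 and the authors' deposited FDRs gave 4, 2 and 4. Without either wildtype library 1, 1 and 2 of these calls against wildtype were left, and without the deeper SMARCA4-null library 1 was left in the SMARCA4 null. Between nulls, leaving out each library gave 1 to 5 calls for the SMARCB1 null against the SMARCA4 null, 1 to 4 for the double null against the SMARCA4 null and 0 to 2 for the double null against the SMARCB1 null. TMM scaling and DESeq2 each gave 1 in the last comparison (0 by edgeR). For the double null against the SMARCA4 null, TMM scaling gave 1 and no filter 1, instead of 3. The cause of these changes was not tested, apart from the smaller number of libraries where one was left out. Over 37 single-gene results, 176 of 232 alternatives kept direction and side of the threshold, 56 missed the threshold, and 0 changed sign. Of the 176, 32 came from centring, 30 from the filter at 100 reads and 5 from the shorter table, settings in which 0 missed the threshold. Centring shifted log2 ratios by at most 0.12 and left the authors' FDRs as they were. Its 32 could therefore not miss the threshold and do not show that the results are robust. TMM scaling kept 10 and missed 5, and edgeR on the recovered reads kept 7 and missed 3. Without the filter on low counts 3 were kept and 2 missed, and DESeq2 kept 13 and missed 2. Depth limits HOXB7 and HOXD1, and 2 libraries a group limit all tests.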
